A study of Danio rerio with 2 samples.

Results

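Potassium and pacemaker channel genes were examined in RNA from the adult zebrafish forebrain choroid plexus. Members were the entries of the authors' series table whose gene name begins with kcn, further letters and a digit, or with hcn and a digit, whatever the case of the letters. The rule found 97 of the 21019 entries in that table. Per the labels, 2 libraries (called replicates 1 and 2, after their batch numbers) were made from untreated AB and nacre (mitfa-/-) fish, the latter without melanophores. The fish were 6 to 8 months old and over 3 cm long, and each library came from a separate pool of 12 to 19 choroid plexuses with the pineal gland removed. How the fish of each line were divided between the pools is not stated in the labels. All samples form 1 group, so no condition was compared and no statistical test was run. Replicate and batch cannot be told apart.

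Potassium channels are membrane pores that let potassium ions run down their gradient and so set the resting potential of a cell. Inward rectifiers and two-pore channels are open at rest, voltage-gated channels open on depolarisation, and calcium-activated channels open as calcium rises in the cell. Pacemaker (HCN) channels pass both sodium and potassium and open on hyperpolarisation. In the choroid plexus of mammals, the sodium pump sits in the apical membrane and brings potassium into the epithelium from the ventricle, and potassium channels return it as cerebrospinal fluid is secreted.

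The libraries held 11712489 and 13446356 expected counts in replicates 1 and 2. The 97 channel genes together took 6703 and 5679 of them, or 0.0572% (exact 95% interval 0.0559 to 0.0586%) and 0.0422% (0.0411 to 0.0433%). These intervals cover counting error only. All 10 epithelial markers, such as rbp4, clic6 and otx2b, reached 1 TPM in both libraries, with summed levels of 38837 and 42576 TPM. Most of each sum came from rbp4 alone, at 32798 and 35995 TPM. TPM is the level per effective transcript length, scaled to the same sum in each library. Markers of the pineal gland and photoreceptors differed between the libraries: 17 of 18 listed genes were matched, none was at 0 counts, and they summed to 3452 TPM in replicate 1 and 120.02 TPM in replicate 2. All 15 neuron markers were matched, none was at 0 counts, and they summed to 39.7 and 7.44 TPM.

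Most channel genes were barely transcribed. Of the 97 members, 26 (26.8%) were detected, which means that both libraries reached 1 TPM, against 66.1% of all genes of the table. A level of 10 TPM was reached in both replicates by 6 members (6.19%), against 31.9% of all genes, and a level of 100 TPM by no member, against 3.78%. The median member was at 0.46 and 0.22 TPM in replicates 1 and 2, and the median gene of the table at 5.44 and 4.03 TPM. The 6 genes above 10 TPM came 1 each from 6 of the 7 classes, and pacemaker genes gave none. They held 57.2% of the summed TPM of all members in replicate 1 and 67.0% in replicate 2. The other 71 members include 14 that reached a TPM of 1 in replicate 1 only, which is 14.4% of members against 6.9% of all genes. The gene kcnh6b did so in replicate 2 only (2.63% of all genes), with 0 and 11 counts, and was picked out after its values were seen. The remaining 56 members stayed below 1 TPM in both, and 22 of these had at most 3 counts in each library. The table leaves out genes with a mean TPM of at most 0.005. A further 38 entries carry a channel symbol only in a reference table of gene names, and 33 of them were at 0 counts in both libraries and so lie outside the series table. Among the other 5, kcnt2b (a sodium-activated channel gene, 6.60 and 6.37 TPM), kcnj21 (4.48 and 1.46 TPM) and an entry named KCNMB2 (1.88 and 3.45 TPM) would also count as detected. With them, 29 of 135 entries (21.5%) were detected, against 54.6% of all genes in the files of the samples.

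**Figure D1:**
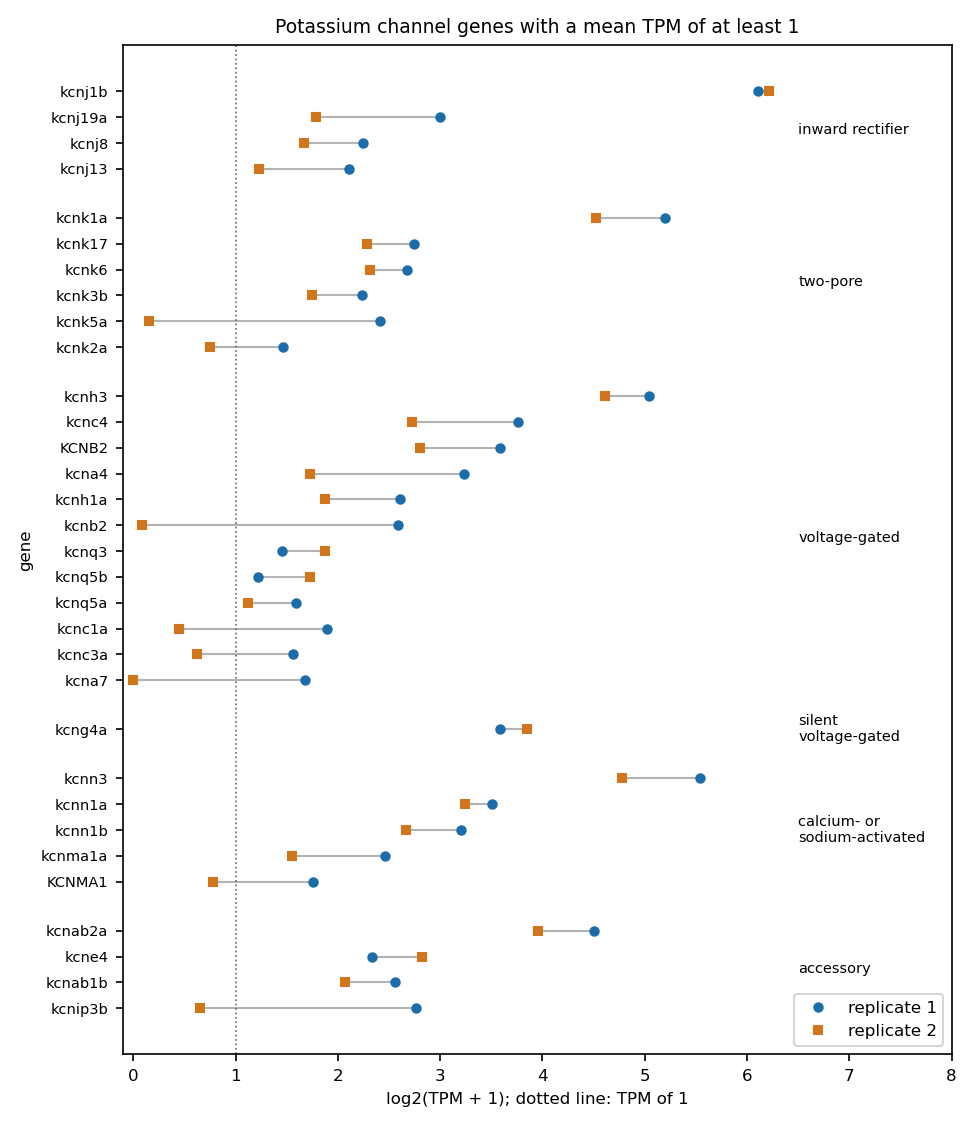
Levels of 32 of the 35 channel genes whose mean reached 1 TPM, as log2(TPM + 1) on the x axis, with circles for replicate 1, squares for replicate 2 and genes grouped by class. The gene kcnj1b lies apart at the right with both replicates close together (68.1 and 73.1 TPM). Squares lie to the left of circles for most other genes. Values are drawn without removing the median shift of all genes, which also lies toward replicate 1.

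Inward rectifier genes were dominated by kcnj1b, the most abundant channel gene by TPM. It encodes a relative of the mammalian kidney channel ROMK, which secretes potassium across the apical membrane of the renal tubule. It was at 68.1 TPM in replicate 1 (769 counts) and 73.1 TPM in replicate 2 (1031 counts), or 70.6 ± 3.58 TPM (SD, n = 2). Both values exceeded those of every other member, and the mean stood above 93.9% of all genes of the table. It held 77.5% and 88.6% of the summed TPM of the 18 inward rectifier genes.

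The related gene kcnj1a.1 had 3 and 4 counts, or 0.25 and 0.27 TPM. The 3 other detected inward rectifiers lay far below kcnj1b in both libraries. The gene kcnj19a was at 6.99 and 2.44 TPM. The gene kcnj8, which encodes the pore of the ATP-sensitive channel of vascular mural cells, was at 3.74 and 2.18 TPM from 33 and 24 counts. Its sulfonylurea receptor partner abcc9 was at 4.69 and 5.50 TPM, and the partner of the pancreatic type, abcc8, was at 0.50 and 0.08 TPM. The values of abcc9 lay above those of kcnj8 in both libraries, and abcc8 was below detection. Of 10 mural markers, which include abcc9, 9 were detected, and they summed to 178 and 168 TPM.

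The gene kcnj13 encodes Kir7.1, a channel of the apical membrane of mammalian choroid plexus whose mutation alters the pigment stripes of zebrafish. It was at 3.31 TPM (149 counts) and 1.35 TPM (85 counts). Both values passed the threshold, and the mean stood above 38.3% of all genes of the table. The astroglial channel gene kcnj10 had 2 entries, with kcnj10a at 0.78 and 0.11 TPM and KCNJ10 at 0.46 and 0.28 TPM. The strong rectifiers kcnj2a and kcnj2b were at 0.71 and 0.14 TPM and at 0.11 and 0.08 TPM. None of these 4 entries had more than 10 counts in a library.

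Two-pore genes, which carry background potassium currents, were led by kcnk1a, a relative of mammalian TWIK-1. It was at 35.7 and 22.0 TPM from 293 and 245 counts, or 28.9 ± 9.73 TPM, and held 59.0% and 63.9% of the class. The next genes, kcnk17 and kcnk6, had overlapping values, and kcnk3b lay just below both in each library. The gene kcnk17, a relative of an alkali-activated channel, was at 5.69 and 3.87 TPM. The TWIK relative kcnk6 was at 5.38 and 3.96 TPM. The acid-sensitive channel gene kcnk3b was at 3.70 and 2.36 TPM. These 4 were the detected genes among 15. Of those not detected, the acid-sensitive channel gene kcnk5a had the highest mean, at 4.31 and 0.11 TPM, and the mechanosensitive channel gene kcnk2a was at 1.75 and 0.68 TPM. The gene kcnk5b, whose gain of function lengthens zebrafish fins, was at 0.25 and 0.40 TPM.

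Voltage-gated genes were the largest class, with 10 of 33 members detected. The leading gene was kcnh3, a member of the Elk branch that is known from forebrain neurons in mammals. It was at 31.9 TPM (706 counts) in replicate 1 and 23.4 TPM (650 counts) in replicate 2, or 27.6 ± 5.97 TPM. Of the 15 neuron markers 1 was detected, snap25b, at 15.9 and 3.84 TPM. The marker syt1a was at 8.74 and 0.46 TPM, and the pan-neuronal gene elavl3 at 1.05 and 0.46 TPM. Which cells gave the kcnh3 level was not tested. The other 9 kcnh genes included kcnh1a, a member of the Eag branch, at 5.08 and 2.66 TPM, and 8 genes below detection.

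Delayed rectifier genes of the kcnb family included KCNB2 at 10.96 and 5.99 TPM. A separate entry, kcnb2, was at 5.02 and 0.06 TPM. Whether KCNB2 and kcnb2 share reads was not tested. The expected counts of all 97 members were whole in both libraries. The silent subunit kcng4a forms no channel alone and joins kcnb subunits in mammals. It was at 11.0 TPM (203 counts) and 13.4 TPM (313 counts), or 12.2 ± 1.65 TPM. Its level was close to that of KCNB2 in replicate 1 and above it in replicate 2. The gene held 92.5% and 95.8% of the silent class, whose other 7 members were at most 0.27 TPM. The adhesion protein gene amigo1, whose product binds kcnb channels in mammals, was at 27.8 and 25.1 TPM.

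Among fast-inactivating and delayed channels, kcnc4 was at 12.6 and 5.61 TPM and kcna4 at 8.43 and 2.31 TPM. These were the detected kcnc and kcna genes, 1 in each family of 5. Orthologs of kcna channels described in mammalian choroid plexus were near 0: kcna1a had 12 and 6 counts, kcna1b 3 and 0, and kcna6a 2 and 0. No member was named for kcna3. The 3 kcnd genes, which encode the A-type channels of neurons and heart, were each at 0.46 TPM or less.

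The kcnq genes encode the low-threshold channels behind the neuronal M current and several epithelial currents. The gene kcnq3 was at 1.74 and 2.66 TPM, kcnq5a at 2.01 and 1.18, and kcnq5b at 1.33 and 2.31 TPM. The direction between replicates was not shared among these, as kcnq3 and kcnq5b were higher in replicate 2 and kcnq5a in replicate 1. The ortholog of the cardiac and epithelial KCNQ1, kcnq1.1, had 1 and 6 counts, or 0.07 and 0.23 TPM.

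Of the calcium- or sodium-activated channels, the small-conductance SK genes were the main ones. These channels open through calmodulin bound to the channel. The leading gene kcnn3 was at 45.4 TPM (1450 counts) and 26.4 TPM (1058 counts), or 35.9 ± 13.4 TPM, the second highest mean of all members. The genes kcnn1a and kcnn1b were at 10.3 and 8.45 TPM and at 8.24 and 5.33 TPM. The 5 kcnn genes together held 64.3 and 40.3 TPM. The gene kcnn2 had 4 and 0 counts, and kcnn4, the intermediate-conductance channel gene of epithelia and blood cells, had 0 and 1. All 6 matched calmodulin entries were detected, from calm1b at 49.5 and 44.2 TPM to calm1a at 463 and 537 TPM. The large-conductance BK channel had 2 entries, kcnma1a at 4.50 and 1.93 TPM and KCNMA1 at 2.38 and 0.72 TPM, so 1 of them passed the threshold. Within each library kcnn3 was above kcnk1a and kcnh3, although its value in replicate 2 lay below theirs in replicate 1. The order of kcnk1a and kcnh3 changed between the replicates.

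**Figure D2:**
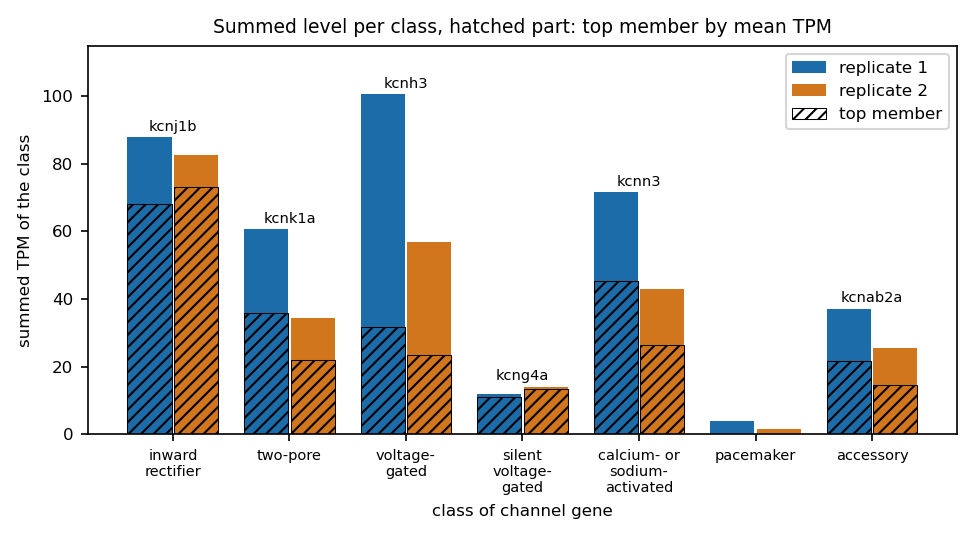
Summed TPM of each class of channel gene in replicate 1 (blue) and replicate 2 (orange), with the hatched part of each bar showing the top member by mean TPM, whose name stands above. No top member is marked for the pacemaker class. The inward rectifier sum is almost the same in both replicates (87.8 and 82.6 TPM), mostly from kcnj1b (68.1 and 73.1 TPM). The other detected inward rectifier genes are lower in replicate 2, as is the voltage-gated sum (100.5 and 56.9 TPM). Sums are drawn without removing the median shift of all genes, which also lies toward replicate 1.

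Pacemaker genes had the lowest summed level of the 7 classes, 4.00 and 1.60 TPM over 6 members, and none was detected. The gene hcn5 had 0 and 13 counts, hcn2b 13 and 2, hcn4 13 and 0, hcn3 0 and 3 and hcn4l 1 and 0. A count of 0 allows a level of up to 0.155 TPM for hcn5 in replicate 1 and 0.0883 TPM for hcn4 in replicate 2, taking 3 counts as the limit.

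Accessory subunits were led by kcnab2a, which encodes a beta subunit that binds kcna channels in the cytosol. It was at 21.6 and 14.6 TPM from 231 and 193 counts, or 18.1 ± 4.99 TPM. This exceeded the summed level of the kcna family, 11.5 and 2.53 TPM, in both replicates. A second beta subunit gene, kcnab1b, was at 4.90 and 3.19 TPM. The kcne family, single-pass subunits that tune kcnq channels, had 1 member, kcne4, at 4.05 TPM (117 counts) and 6.08 TPM (220 counts). No member was named for kcne2, a subunit of the mammalian choroid plexus epithelium. The partner of kcnd channels and calcium sensor kcnip3b was at 5.77 and 0.57 TPM, and the other kcnip genes had at most 4 counts.

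The teleost genome duplication left many channel genes in an a and a b copy. Of 16 pairs of a and b copies, 8 had a detected copy and 2 had both detected. In 3 of the 8 (37.5%) the copies differed at least 4-fold on the TPM + 1 scale, the same way in both replicates, against 34.0% of the 1477 such pairs over all genes. This share is near that of all pairs. The unequal pairs were kcnk1, kcnab2 and kcnab1. The copy kcnk1b was at 1.34 and 0.06 TPM beside 35.7 and 22.0 for kcnk1a. The copy kcnab2b was at 0.07 and 0.12 TPM beside 21.6 and 14.6 for kcnab2a. For kcnab1 the b copy was the higher one, with kcnab1a at 0.16 and 0.04 TPM. The number was 5 on the TPM + 0.1 scale. In replicate 1 alone it was also 5, which include kcnk5, a pair without a detected copy. No share of all pairs was taken at these settings. Both copies were detected for kcnn1 and for kcnq5. By TPM the higher kcnq5 copy changed between replicates, from 39 and 26 counts for kcnq5a and 17 and 55 for kcnq5b.

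**Figure D3:**
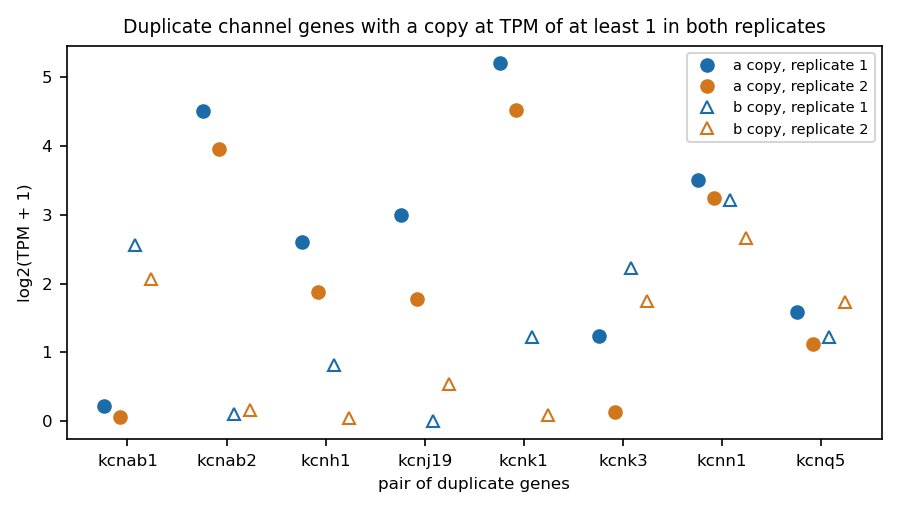
Levels of the 8 duplicate pairs with a detected copy, as log2(TPM + 1), with filled circles for the a copy, open triangles for the b copy, blue for replicate 1 and orange for replicate 2. The kcnk1 and kcnab2 copies are far apart in both replicates, while the 2 kcnn1 copies and the 2 kcnq5 copies lie close together.

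Between the replicates, channel genes tended to be higher in replicate 1. The ratio was taken on the TPM + 1 scale, less the median shift of all genes (log2 -0.25, replicate 2 over replicate 1). Of the 35 members whose mean reached 1 TPM, 29 (82.9%) were higher in replicate 1, against 50.0% of all genes of the table at that level and 56.9% of the genes between 1 and 10 TPM. Their median log2 ratio was -0.42, against 0.00 for all genes. The 0.00 and the 50.0% are set by removing the median and are not observed backgrounds. Of the 29 members between 1 and 10 TPM, 25 were higher in replicate 1. The median log2 ratio of these 29 was -0.48, against -0.09 for all genes of that range. A ratio of at least 2-fold toward replicate 1 was shown by 6 of the 35 members (17.1%), against 5.22% of all genes. All 6 lay between 1 and 10 TPM, where 7.42% of all genes showed it. Of the 35 members, 26 also reached 1 TPM in replicate 2, and the rest passed the filter on the mean through replicate 1 alone. Of the 6, only kcna4 reached 1 TPM in both libraries. The counts of 29 and 6 thus rest in part on genes kept by the replicate in which they were high. The same filter was applied to all genes. Toward replicate 2 there were none of the 35, against 3.56% of all genes. With a pseudocount of 0.1 the 6 became 10, and among members whose mean reached 5 TPM only kcna4 was left. No share of all genes was taken at these settings. In these bulk samples, fewer cells of a type and less RNA per cell cannot be told apart.

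The steepest difference was that of kcnb2, with 161 and 3 counts. Its count ratio, replicate 1 over replicate 2, scaled by the library totals and by the median gene, was 54.9 (exact 95% counting interval 18.4 to 269). The two-pore gene kcnk5a had 65 and 2 counts, a ratio of 33.2 (8.84 to 280.2), with 4.31 and 0.11 TPM. Its duplicate kcnk5b had 5 and 10 counts. The calcium sensor gene kcnip3b had 34 and 5 counts, a ratio of 6.95 (2.71 to 22.8). For kcna4, with 168 and 64 counts, the ratio was 2.68 (2.00 to 3.64). The other 2 genes past 2-fold, kcnc1a with 67 and 9 counts and kcna7 with 12 and 0 counts, were picked out after their values were seen. For kcna7 the exact 95% counting interval of the ratio began at 2.84 and had no upper limit. Taking 3 counts as the limit in replicate 2 and the 12 counts as free of error, the ratio was 4.09 or more. All 6 intervals lay above 1. The genes were chosen for this difference in the same libraries, so that outcome was close to given and is no separate support. The intervals compare these 2 libraries and not conditions.

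Pineal and photoreceptor markers moved the same way: 15 of 17 were at least 2-fold higher in replicate 1, with exorh at 656 and 11.7 TPM, and asmt2 (10.5 and 8.25 TPM) and pde6c (39.3 and 58.5 TPM) as the exceptions. Among the 5 neuron markers whose mean reached 1 TPM, 2 exceeded 2-fold toward replicate 1, and the median log2 ratio of all 15 was -0.74. Astroglial markers were mixed: of 7 whose mean reached 1 TPM, 3 exceeded 2-fold toward replicate 1, among them the glutamate transporter gene slc1a2b at 14.5 and 1.77 TPM, and the median log2 ratio of all 8 was -0.10. Erythrocyte markers went the other way, with 3 of 6 entries past 2-fold toward replicate 2 and sums of 1691 and 5841 TPM. The part of these cell types in the ratios of the channel genes was not tested. Endothelial and mural markers did not share the direction, with median log2 ratios of 0.39 and 0.31, and the 9 endothelial markers summed to 152 and 165 TPM. Epithelial and macrophage markers also had positive medians, of 0.35 and 0.34. Counting intervals were computed for members only, so no share of all genes stands beside the next counts, which cannot be called particular to channel genes. Of the 35 members, 19 had a counting interval above 1 and 4 an interval below 1.

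Those 4 were kcnj1b, kcng4a, kcne4 and kcnq5b, named after their values were seen, and each was higher in replicate 2. The count ratio, again replicate 1 over replicate 2, was 0.763 (0.694 to 0.838) for kcnj1b. It was 0.663 (0.553 to 0.794) for kcng4a. It was 0.544 (0.431 to 0.684) for kcne4. None of these 4 reached 2-fold on the TPM + 1 scale, where the log2 ratios were 0.36, 0.51, 0.74 and 0.76. On the same scale the epithelial, macrophage, endothelial and mural markers had medians of 0.35, 0.34, 0.39 and 0.31. Medians of the other marker lists ran from -4.13 (pineal and photoreceptor) to 1.44 (erythrocyte). Which cells gave the levels of these 4 genes was not tested. For kcnq5b the counts were 17 and 55, and its effective length, set by the mix of transcripts that RSEM assigned, differed 1.48-fold between the libraries. No detected member had an effective length that differed by 1.5-fold or more.

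**Figure D4:**
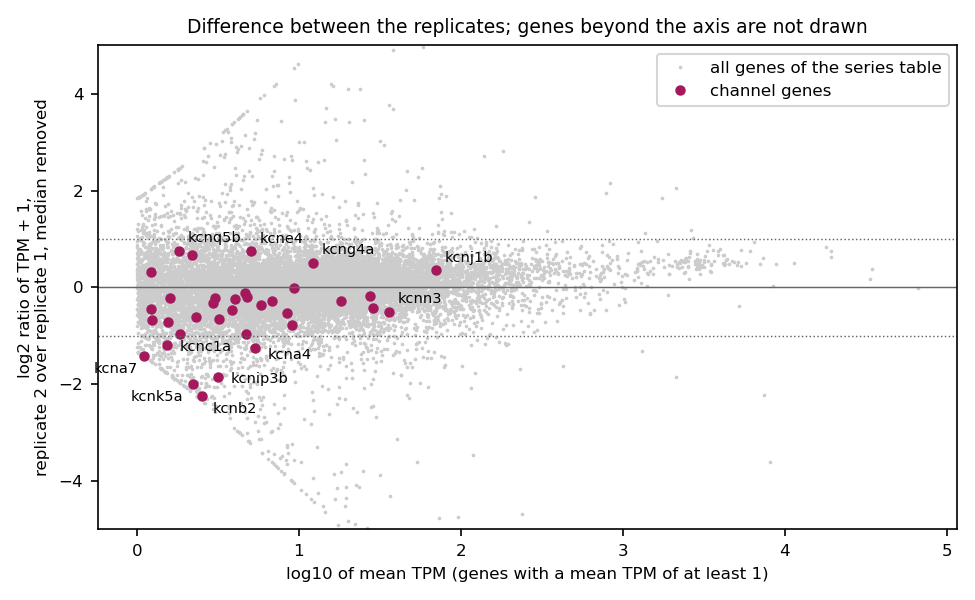
Log2 ratio of TPM + 1, replicate 2 over replicate 1 with the median of all genes removed, against log10 of mean TPM, for genes of the series table whose mean reached 1 TPM (grey) and 35 channel genes (purple). Dotted lines mark a 2-fold difference, and 6 channel genes lie below the lower line and none above the upper one.

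Some listed genes for other potassium routes were transcribed at higher levels than most channels. The cotransporter gene slc12a2, whose product carries sodium, potassium and chloride in the apical membrane of mammalian choroid plexus, was at 70.7 and 75.9 TPM. The potassium and chloride cotransporter genes slc12a4 and slc12a7b were at 71.3 and 47.9 TPM and at 44.0 and 33.0 TPM. Of 10 matched genes of other potassium pathways, 6 were detected, the lowest being tmem175, which encodes a lysosomal potassium channel outside the kcn family, at 5.95 and 5.34 TPM. The neuronal cotransporters slc12a5a and slc12a5b had 1 and 0 counts and 10 and 2 counts. The genes slc12a3 and tmem38a, also below detection, had 7 and 1 counts and 0 and 3 counts. Of the kinases that act on these cotransporters, 4 of 7 matched genes were detected, with oxsr1b at 21.2 and 19.6 TPM, wnk1b at 14.3 and 14.1, oxsr1a at 9.63 and 8.27 and wnk1a at 10.9 and 5.50 TPM, and stk39 had 14 and 4 counts. Of 15 matched entries of channel partners, 8 were detected. They were the 6 calmodulin entries, amigo1 and abcc9, while the kcnd partners dpp6a and dpp6b had 28 and 4 counts and 9 and 7 counts.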

How the data were processed

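The submitters' processing notes name STAR, RSEM 1.3.3 and genome build GRCz11; neither the annotation nor the strand setting is stated there. The authors deposited, per the file headers, RSEM's expected counts of both libraries, which need not be whole, with TPM, which are counts per effective length scaled to a common sum. FPKM values were also deposited by the authors and not used. The TPM deposited in the series table matched the libraries' mean within 0.005, so that table gave gene names only.

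Members were grouped by symbol. TPM means carry the SD of 2 libraries. Counts were rounded for exact intervals (scipy 1.17.1). Alternatives used CPM, other pseudocounts and filters, edgeR 4.0.16 TMM factors and DESeq2 1.42.0 size factors. The ratio and interval steps were tested on counts simulated with counting error only, in genes whose mean reached 10 TPM. That test therefore does not cover genes below this level. Depth limits low genes: 3 counts equal 0.256 and 0.223 CPM in replicates 1 and 2. PCR reads without molecular identifiers are not independent molecules.

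Members and lists were chosen with earlier results of these data known. Genes were named from the 25 highest by mean TPM, the top 3 of each class and those at least 4-fold apart between replicates. Unequal pairs, orthologs of mammalian choroid plexus channels and the members next to the detection threshold were further sources. Some others are said to have been picked out after their values were seen, or stand as members of a family or list described whole. The rest, such as kcnk2a, kcnk5b and kcnq3, were named under none of these rules. No sequence or coordinate is printed, as none was used here. Some members are not reported here by name. The entry kcnj11l occurs for 2 gene identifiers. For 1 of them, at 1.32 and 0.45 TPM, the reference table of gene names gives cd59b, which is no channel symbol. It was kept as a member by its name in the series table.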

Additional observations from a re-analysis of the deposited data

How the results depend on the processing

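No paired analysis was possible because both libraries belong to 1 group. The number of detected members was 26, between 20 and 35 over thresholds of 2 and 0.5 TPM, 29 with CPM or with the entries named only in the reference table (chosen after seeing the data), and 27 to 40 in a single replicate. With CPM, which ignores length, the shares of the members' summed level became 19.4% for inward rectifiers (27.8% with TPM), 10.6% for two-pore genes (14.8%), 31.1% for calcium- or sodium-activated genes (17.9%) and 7.42% for accessory genes (9.91%), so their order depends on the unit. Members at least 2-fold higher in replicate 1 were 6, with 10 at a pseudocount of 0.1 and 1 among members whose mean reached 5 TPM. Those higher in replicate 2 were 0, with 1 at that pseudocount, 1 with CPM and 2 with no filter on low values. TMM and DESeq2 scaling left both counts at 6 and 0. Of the 35 members, 28 or 29 were higher in replicate 1 under these 4 scalings, a count chosen after seeing the data. For the 6 genes past 2-fold, 23 of 24 recomputed log2 ratios stayed past it, and that of kcna7 with CPM was -0.87. The genes were chosen for this difference in the same libraries, and the smaller pseudocount steepened each ratio. That outcome was therefore close to given and is no separate support. Unequal pairs were 3, 5 on the TPM + 0.1 scale and 3 to 5 in a single replicate. Of the 10 highest members, 8 were shared with the 10 highest by CPM and 9 with those of either replicate alone. By CPM, kcnn3 (123.8 and 78.7 in replicates 1 and 2) stood above kcnj1b (65.7 and 76.7), so the top gene depends on the unit. With 56 members under 1 TPM in both libraries, differences among these are mostly within counting error.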
